A study of Mus musculus with 12 samples.

Results

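The 34 genes described here build and orient the contacts between epithelial cells. They comprise 9 claudins, 8 further tight junction genes, 6 adherens junction genes, 5 desmosome genes, 5 polarity genes and Epcam, and were taken by symbol from a count table of 54109 Ensembl identifiers matched to the GENCODE M21 mouse annotation. All 34 were found, and all 34 passed the filter on low counts in each comparison. RNA came from wild-type (WT) mice and from mice lacking Gpr15l (KO, genotype Gpr15l-/-), which codes for a secreted ligand of the T cell homing receptor Gpr15. Every mouse, WT or KO, had been given dextran sulfate sodium (DSS) and had acute colitis, an injury of the colonic epithelium, so no comparison here bears on the effect of DSS. Libraries were made from full colon tissue and from LPMC (commonly short for lamina propria mononuclear cells), with 3 WT and 3 KO libraries of each, in 4 groups. Strain, age and sex are not given in the labels used here, nor is it stated that each library stems from its own animal. The p-values then cover the variation among these libraries, some of which may be technical.

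Total counts ran from 45.4 M to 140.7 M per library (M, 1e6 counts). Gpr15l had 15639 to 80362 counts in the WT libraries and 4 to 20 counts in the KO libraries. The libraries labelled LPMC went against that label: besides endothelial, muscle and fibroblast marker RNA, given further below, they were rich in epithelial RNA. Epcam stood at 964 to 1396 CPM (counts per 1e6, scaled by the TMM method) in the 6 LPMC libraries, against 1354 to 2418 CPM in the 6 colon libraries, and the keratin gene Krt8 at 3168 to 4443 CPM against 5508 to 10940 CPM. Summed over 14 epithelial markers the level was 12120 to 17190 CPM in LPMC and 19440 to 37620 CPM in colon. The summed level of 12 leukocyte markers was 532 to 1862 CPM in LPMC and 72.0 to 1415 CPM in colon, with Ptprc, the pan-leukocyte antigen gene, at 75.8 to 294 CPM and 4.09 to 123 CPM. The junction genes could therefore be measured in both kinds of library, and in neither can a smaller number of epithelial cells be told apart from less RNA per cell. In what follows, LPMC means the libraries so labelled.

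Epithelial cells of the gut are joined by tight junctions, adherens junctions and desmosomes, in that order from the lumen downwards. In the tight junction, strands of claudins decide what passes between cells: Cldn2 forms pores for small cations and water and Cldn15 pores for sodium, whereas Cldn1, Cldn3, Cldn4 and Cldn8 are usually counted as sealing claudins. Occludin and tricellulin lie in the same strands, ZO proteins and cingulin tie them to actin, E-cadherin and the catenins hold the belt below, desmosomal cadherins and plakophilins anchor keratin, and the PAR and Crumbs complexes with Llgl2 set apart the apical from the basolateral membrane. Loss of sealing claudins and gain of Cldn2 are widely described in inflamed bowel.

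In colon the most abundant junction transcripts per length were Epcam, Cldn7 and Cldn3. On the scale of CPM per kilobase of exon, the mean level over 6 libraries was 861 for Epcam, an adhesion protein that stabilises claudin-7, 671 for Cldn7 and 554 for Cldn3. They were followed by the cadherin genes Cdh1 (E-cadherin) at 309 and Cdh17 (LI-cadherin) at 233. At the other end stood the polarity scaffold genes Patj at 7.13 and Pard3 at 2.54, and Cldn1 at 0.190, the lowest of the 34. In LPMC the order began with Cldn3 at 546, Epcam at 532, Cldn7 at 327 and Cdh1 at 252 CPM per kilobase. Cldn4 moved from place 14 in colon to place 5 in LPMC, Cldn15 from 22 to 8, Cldn23 from 21 to 9 and Pard6b from 28 to 16, while Cldn8 went from 16 to 29.

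LPMC and colon libraries held the same junction genes in different proportions. Both pore-forming claudins, the sealing claudin Cldn4 and Cldn23 were higher in LPMC, Cldn8 and Cldn7 were lower, and Cldn3 did not pass. By edgeR's quasi-likelihood test, 22 of the 34 members differed between LPMC and colon with an adjusted p under 0.05, 9 of them higher and 13 lower in LPMC. Over all 20989 genes tested, 50.3% were called, 25.4% higher and 24.9% lower, so a call is common here, and the share of members called says less than which members moved and by how much. The median log2 fold change of the 34 was -0.15, against 0.01 over all genes tested. The test rests on both genotypes with equal weight.

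Cldn2, the cation and water pore, was measured in colon at 23.8, 80.4 and 115 CPM in the WT libraries and 134, 74.4 and 205 CPM in the KO libraries. In LPMC it stood at 262, 347 and 288 CPM in WT and 326, 436 and 255 CPM in KO, so every LPMC library lay above every colon library. The mean was 105 ± 61.8 CPM (SD, n = 6) in colon and 319 ± 67.7 CPM (SD, n = 6) in LPMC. On the log2 scale the rise was 1.68 (SE 0.36, adjusted p = 0.00285). Cldn15, the sodium pore of the intestine, ranged in colon from 8.37 CPM in WT library 2 to 117 CPM in KO library 2, with the other 4 libraries at 27.5 to 51.7 CPM. LPMC libraries held 167, 198 and 241 CPM in WT and 201, 317 and 183 CPM in KO, again above every colon library. The log2 fold change was 2.29 (SE 0.46, adjusted p = 0.00207), the largest rise among the 34.

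The 4 sealing claudins did not move together. Cldn4 stood at 146, 239 and 70.7 CPM in colon WT, at 65.4, 62.2 and 42.7 CPM in colon KO, at 250, 346 and 376 CPM in LPMC WT and at 217, 456 and 281 CPM in LPMC KO. It was higher in LPMC by 1.80 on the log2 scale (SE 0.29, adjusted p = 0.000566), with a single LPMC library, KO 1, below the highest colon library. In the WT libraries alone this call was lost (adjusted p = 0.0979). Cldn8, which recruits other claudins to strands in tight epithelia, went the other way, from 60.5 to 158 CPM in colon to 21.9 to 36.8 CPM in LPMC without overlap (log2 fold change -2.05, SE 0.22, adjusted p = 3.55e-05). Cldn3, the main sealing claudin of the colon by level, held 720, 759 and 707 CPM in colon WT, 503, 1034 and 460 CPM in colon KO, 650, 778 and 705 CPM in LPMC WT and 643, 847 and 500 CPM in LPMC KO. Its log2 difference of -0.01 (SE 0.21, adjusted p = 0.959) was within the spread between libraries, and its sign depended on the setting. Cldn1 was scarce everywhere, from 0.130 to 3.72 CPM in colon and from 0.344 to 5.27 CPM in LPMC, with overlapping groups (log2 fold change 1.80, SE 0.83, adjusted p = 0.0933).

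The claudins that were assigned to neither class also parted. Cldn7, a partner of Epcam at the lateral membrane, stood at 1397, 1669 and 1291 CPM in colon WT and 935, 1656 and 894 CPM in colon KO, against 604, 729 and 664 CPM in LPMC WT and 633, 696 and 502 CPM in LPMC KO. All LPMC libraries lay below all colon libraries (log2 fold change -1.02, SE 0.17, adjusted p = 0.000662). Cldn23 showed the reverse, with 24.6 to 65.2 CPM in colon and 150 to 223 CPM in LPMC, without overlap (log2 fold change 2.03, SE 0.23, adjusted p = 4.81e-05). Cldn12 ranged from 44.1 to 73.7 CPM in colon and from 45.5 to 67.1 CPM in LPMC, and the groups overlapped almost completely (adjusted p = 0.906).

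**Figure D1:**
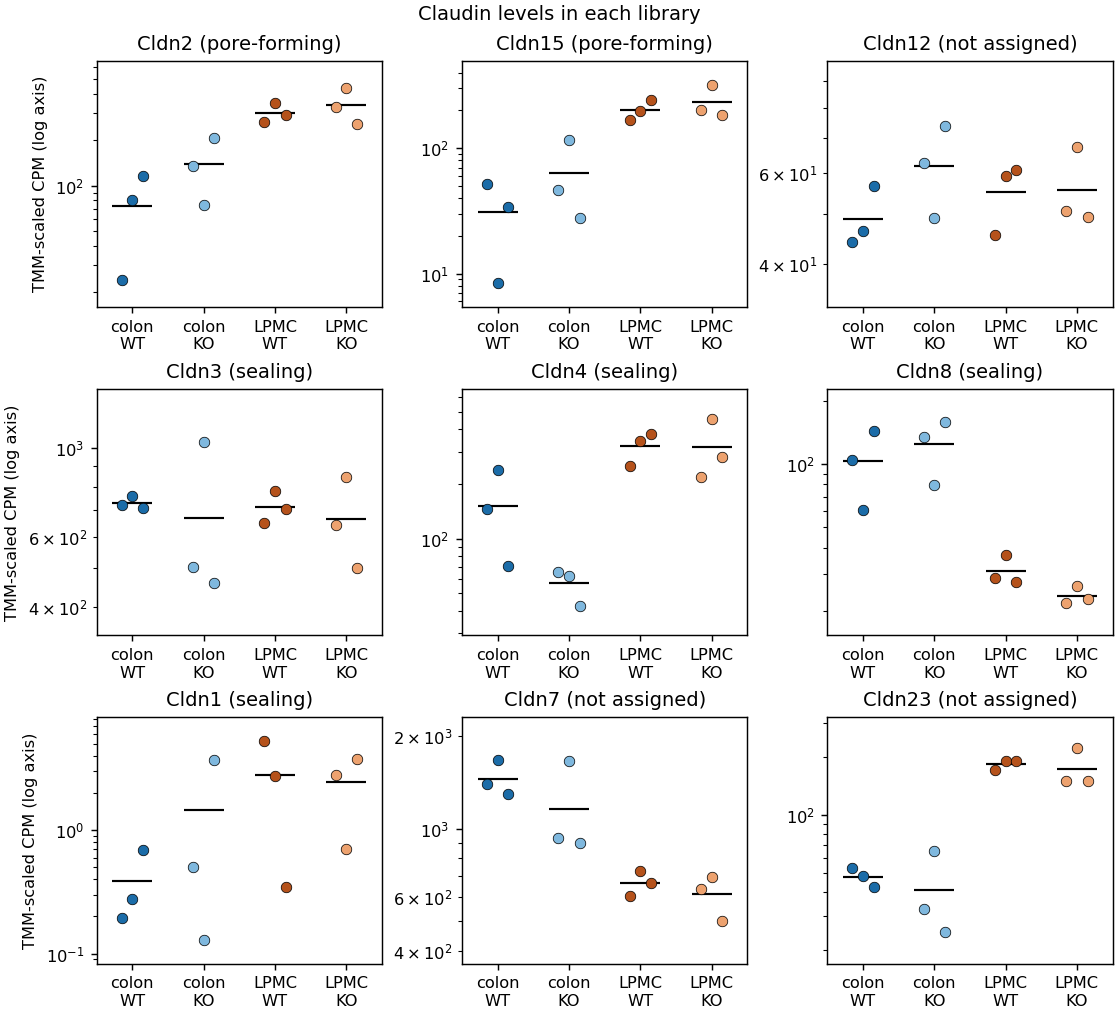
TMM-scaled CPM of the 9 claudins (log axis) in each of the 12 libraries, by group; points are libraries, in the order 1 to 3 within a group, and lines are group means. Cldn2, Cldn15 and Cldn23 lie higher and Cldn7 and Cldn8 lower in every LPMC library than in every colon library, while Cldn3 and Cldn12 overlap.

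The start regions of 4 claudin genes are shown because Cldn2 and Cldn15 rose together in LPMC, and because Cldn3 and Cldn4 are neighbours of which only Cldn4 was called. In GRCm38, Cldn3 lies on the plus strand at chr5:134986214-134987472 and Cldn4 on the minus strand at chr5:134945119-134946934, with 39.3 kb between them. Cldn15 lies further along the same chromosome on the plus strand at chr5:136966616-136975858, and Cldn2 on the plus strand at chrX:139800828-139811386. Each sequence below is the RefSeq promoter window of GRCm38.p6, from 250 bases before to 50 bases after the start in RefSeq, read 5′ to 3′ on the gene's strand. The RefSeq start is that of M21 for Cldn3 and Cldn4, lies 20 bases before it for Cldn2 and 1253 bases after it for Cldn15, so that the Cldn15 window falls inside the gene as M21 has it. Capitals mark matches, on either strand, to a CDX-type site (TTTATNG), a Snail-type E-box (CAGGTG) or an AP-1 site (TGANTCA), motifs of an intestinal regulator, of repressors of epithelial genes and of a stress-responsive activator.
Cldn2 (chrX:139800558-139800857, plus strand): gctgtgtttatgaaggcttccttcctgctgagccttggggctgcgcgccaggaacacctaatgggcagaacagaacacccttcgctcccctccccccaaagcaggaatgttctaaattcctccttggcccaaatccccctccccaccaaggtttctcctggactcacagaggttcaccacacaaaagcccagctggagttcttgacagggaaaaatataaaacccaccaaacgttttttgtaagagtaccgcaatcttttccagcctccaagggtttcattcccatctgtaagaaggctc
Cldn15 (chr5:136967619-136967918, plus strand): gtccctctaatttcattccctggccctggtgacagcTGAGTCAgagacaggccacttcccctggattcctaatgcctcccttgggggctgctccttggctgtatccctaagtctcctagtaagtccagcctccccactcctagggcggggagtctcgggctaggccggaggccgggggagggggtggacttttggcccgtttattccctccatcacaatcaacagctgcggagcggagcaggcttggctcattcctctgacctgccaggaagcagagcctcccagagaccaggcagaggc
Cldn3 (chr5:134985964-134986263, plus strand): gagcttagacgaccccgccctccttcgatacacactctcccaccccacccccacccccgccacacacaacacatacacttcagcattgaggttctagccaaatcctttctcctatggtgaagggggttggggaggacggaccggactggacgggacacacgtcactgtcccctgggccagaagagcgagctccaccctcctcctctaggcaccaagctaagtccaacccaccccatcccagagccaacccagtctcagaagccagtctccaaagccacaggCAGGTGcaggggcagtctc
Cldn4 (chr5:134946885-134947184, minus strand): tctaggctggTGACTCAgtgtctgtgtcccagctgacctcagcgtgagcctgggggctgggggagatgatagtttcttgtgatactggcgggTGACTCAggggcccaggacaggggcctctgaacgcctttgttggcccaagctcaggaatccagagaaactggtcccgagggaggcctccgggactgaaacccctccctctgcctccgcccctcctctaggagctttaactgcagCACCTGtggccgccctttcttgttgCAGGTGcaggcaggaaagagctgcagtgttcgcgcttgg
The Cldn2 window held none of these letters, the Cldn15 window 1 AP-1 match, the Cldn3 window 1 E-box and the Cldn4 window 2 E-boxes and 2 AP-1 matches. The pair that rose together shared no match, and the neighbours shared the E-box. Over all 32851 promoter windows of the table, 10.9% held the CDX-type letters, 20.2% the E-box and 7.81% the AP-1 letters. Windows were available for 22 of the 34 members, of which 13 held the E-box, 4 the AP-1 letters (Cldn15, Cldn4, F11r and Patj) and 2 the CDX-type letters (Prkcz and Epcam). A member was counted if any of its windows matched, whereas the shares over the table are per window, so the 2 are not directly comparable. A match is a run of letters and not a measured site, and the window does not cover distant elements.

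The balance of pore-forming to sealing claudins also differed between tissues. It was taken in each library as the log2 of summed Cldn2 and Cldn15 CPM over summed Cldn1, Cldn3, Cldn4 and Cldn8 CPM. In colon WT it was -3.69, -3.58 and -2.64, in colon KO -1.96, -2.62 and -1.51, in LPMC WT -1.12, -1.10 and -1.07, and in LPMC KO -0.75, -0.82 and -0.88. All LPMC libraries lay above all colon libraries. The numerator was 75.5 to 233 CPM in colon and 429 to 754 CPM in LPMC, and the denominator 665 to 1176 CPM in colon and 807 to 1329 CPM in LPMC. Per length, Cldn2 and Cldn15 made up 1.67 to 7.32% of the CPM per kilobase of the 9 claudins in colon and 12.7 to 16.4% in LPMC. Cldn7 fell from 44.9 to 50.9% of this sum in colon to 20.9 to 26.0% in LPMC, and Cldn4 had 1.84 to 7.82% in colon and 9.56 to 14.7% in LPMC. Cldn3 held 35.8 to 44.1% in colon and 36.9 to 41.7% in LPMC. No p is given for this ratio, since its members were chosen for it.

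**Figure D2:**
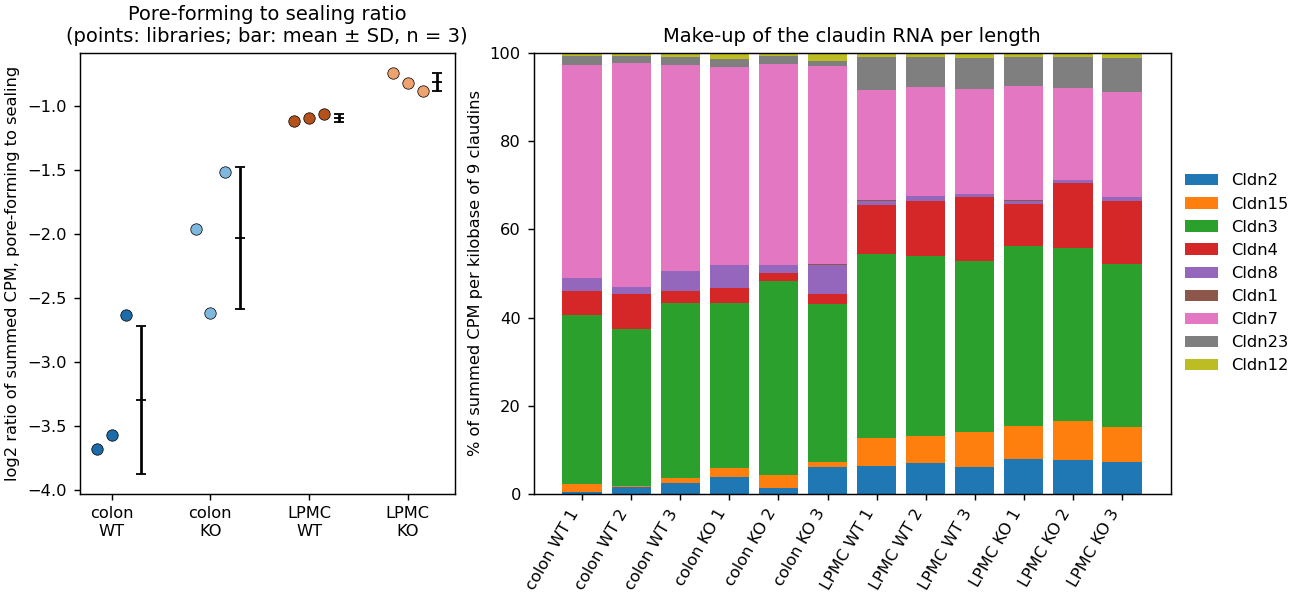
Left, log2 ratio of summed pore-forming (Cldn2, Cldn15) to summed sealing (Cldn1, Cldn3, Cldn4, Cldn8) CPM in each library, with mean ± SD (n = 3) beside the points. Right, share of each claudin in the summed CPM per kilobase of 9 claudins, in percent, per library. The ratio is -3.69 to -1.51 in colon and -1.12 to -0.75 in LPMC, and the Cldn7 share is smaller in every LPMC library.

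Among the other tight junction genes, 2 were higher and 4 lower in LPMC. Ocln, which codes for occludin, stood at 72.4, 64.7 and 97.9 CPM in colon WT and 79.2, 86.6 and 88.3 CPM in colon KO, and at 93.8, 111 and 141 CPM in LPMC WT and 80.5, 157 and 103 CPM in LPMC KO. The groups overlapped, and the rise of 0.50 on the log2 scale (SE 0.18, adjusted p = 0.0345) was lost when any of 8 libraries was left out, namely colon WT 1 or 2, colon KO 1, 2 or 3, LPMC WT 2 or 3, or LPMC KO 2 (log2 fold change 0.35 to 0.61 and adjusted p up to 0.0844 over all 12 omissions). Marveld2, the gene of tricellulin, which seals the corners where cells meet, had a small rise of 0.31 (SE 0.11, adjusted p = 0.0369) that was lost without colon WT 2 or 3, colon KO 1 or 3, LPMC WT 2 or 3, or LPMC KO 2 (0.22 to 0.35, adjusted p up to 0.101). F11r, the gene of the adhesion molecule JAM-A, fell from 311 to 521 CPM in colon to 202 to 279 CPM in LPMC without overlap (log2 fold change -0.81, SE 0.14, adjusted p = 0.000862). Marveld3, a relative of occludin, was lower as well (log2 fold change -0.75, SE 0.14, adjusted p = 0.0014).

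Tjp1 and Tjp3, the scaffold genes for ZO-1 and ZO-3, were both lower in LPMC. Tjp1 stood at 147, 122 and 133 CPM in colon WT, 197, 143 and 234 CPM in colon KO, 110, 106 and 129 CPM in LPMC WT and 97.1, 127 and 109 CPM in LPMC KO. Colon KO libraries 1 and 3 were the highest, and the log2 fold change of LPMC to colon was -0.49 (SE 0.13, adjusted p = 0.00869). In the WT libraries alone Tjp1 was not called. Tjp3 was lower by -0.48 on that scale (SE 0.16, adjusted p = 0.0266), a call lost without colon WT 3, LPMC WT 1 or LPMC KO 3 (-0.56 to -0.34, adjusted p up to 0.0649). Cgn, the gene of cingulin, overlapped between tissues at 189 to 303 CPM in colon and 167 to 278 CPM in LPMC, and Cxadr, the gene of an adhesion molecule that also serves viruses as a receptor, overlapped as well (adjusted p = 0.947 and 0.289).

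All 6 adherens junction genes had a negative log2 fold change and 4 were called lower in LPMC. Cdh17, a cadherin of intestinal epithelium, fell from 929 to 1279 CPM in colon to 455 to 700 CPM in LPMC without overlap (log2 fold change -1.01, SE 0.13, adjusted p = 0.000126). Ctnnd1, the gene of p120-catenin, which keeps cadherins at the membrane, stood at 92.1 to 206 CPM in colon and 58.1 to 75.1 CPM in LPMC (-1.11, SE 0.19, adjusted p = 0.000856). The α-catenin gene Ctnna1 (-0.39, SE 0.09, adjusted p = 0.004) and the β-catenin gene Ctnnb1 (-0.28, SE 0.11, adjusted p = 0.0478) moved less. The Ctnnb1 call was lost without any 1 of 9 libraries, namely colon WT 1 or 3, colon KO 2, and each of the 6 LPMC libraries (-0.33 to -0.23, adjusted p up to 0.105). Cdh1 held 1534, 1306 and 1287 CPM in colon WT, 1397, 1552 and 1399 CPM in colon KO, 1025, 1208 and 1276 CPM in LPMC WT and 1077, 1346 and 979 CPM in LPMC KO. Its log2 fold change of -0.28 (SE 0.11) did not pass (adjusted p = 0.0574). Jup, the gene of plakoglobin, did not pass either (adjusted p = 0.477).

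In the desmosome, Pkp3 and Dsg2 were lower in LPMC and the other 3 genes did not pass. Pkp3, a plakophilin that links desmosomal cadherins to desmoplakin, stood at 174 to 291 CPM in colon and 80.6 to 114 CPM in LPMC, the smallest adjusted p of the 34 (log2 fold change -1.29, SE 0.14, adjusted p = 3.21e-05). Dsg2, the main desmoglein of simple epithelia, stood at 453 to 569 CPM in colon and 273 to 374 CPM in LPMC (-0.77, SE 0.11, adjusted p = 0.000191). Both pairs of ranges lay apart. Dsc2, its desmocollin partner, Dsp (desmoplakin) and Pkp2 had log2 fold changes between -0.25 and -0.17, with adjusted p-values of 0.222 to 0.381.

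The polarity genes, like the pore-forming claudins, had calls in the higher direction alone. Pard6b, the adaptor of the PAR complex that binds the kinase aPKC, was measured at 38.2 to 70.2 CPM in colon and 119 to 272 CPM in LPMC (log2 fold change 1.82, SE 0.20, adjusted p = 4.5e-05). Pard3, its scaffold partner, stood at 30.7, 26.1 and 34.8 CPM in colon WT and 46.7, 41.8 and 41.0 CPM in colon KO, against 65.0, 67.9 and 77.1 CPM in LPMC WT and 70.8, 85.0 and 66.3 CPM in LPMC KO. Every LPMC library was above every colon library (1.00, SE 0.10, adjusted p = 3.25e-05). Prkcz, the gene of an atypical protein kinase C, rose from 24.4 to 53.5 CPM in colon to 57.9 to 84.5 CPM in LPMC, likewise without overlap (0.90, SE 0.18, adjusted p = 0.00167). Thus these 3 genes of the PAR complex were higher, while Patj of the Crumbs complex (adjusted p = 0.605) and the basolateral gene Llgl2 (adjusted p = 0.684) did not pass. Among relatives of the 3 outside the members, edgeR called Pard3b higher (0.60, adjusted p = 0.00422). It did not call Prkci (0.30, adjusted p = 0.0576), Pard6g (0.94, adjusted p = 0.0647) or Pard6a (-0.32, adjusted p = 0.127). Of these relatives Pard6a alone had a negative value, and whether the complex moved as a whole was not tested. Epcam was lower in LPMC by -0.68 on the log2 scale (SE 0.17, adjusted p = 0.00684).

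**Figure D3:**
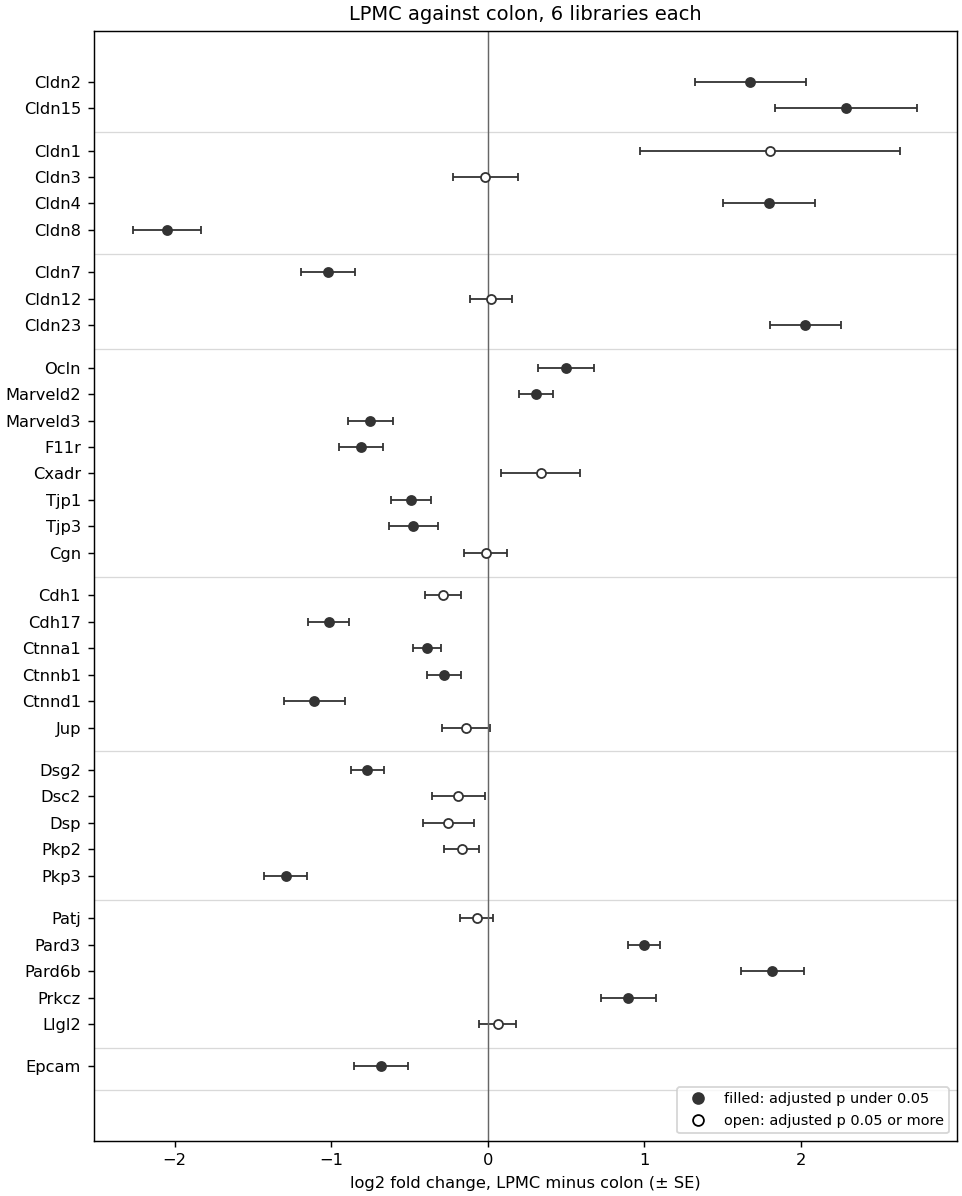
Log2 fold change of LPMC against colon for the 34 members with its SE, from edgeR's fit to 12 libraries, ordered by role and parted by grey lines. Filled points passed an adjusted p of 0.05: 9 lie right of 0 and 13 left of it, with the claudins at both ends from -2.05 to 2.29.

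The tissue comparison also depends on how much of each library is epithelial, and the markers of other cells moved with it. Of 14 epithelial markers 8 were called lower and 1 higher in LPMC. Of 12 leukocyte markers 6 were called higher, of 10 endothelial markers 8 higher, and of 7 tested squamous markers 1 higher and 3 lower. Of 10 smooth muscle and fibroblast markers 4 were called higher, namely the fibroblast markers Col1a1, Col1a2, Col3a1 and Dcn. The 6 smooth muscle markers had negative log2 fold changes, from -1.79 for Cnn1 to -0.22 for Myh11, and none was called. The summed level was 210 to 551 CPM in LPMC against 51.5 to 128 CPM in colon for endothelial markers, 902 to 6030 CPM against 588 to 2137 CPM for smooth muscle and fibroblast markers, and 2.91 to 7.96 CPM against 3.70 to 29.0 CPM for squamous markers. No epithelial, leukocyte, endothelial or muscle and fibroblast marker was at 0 in any library. The part of these cells in the levels of the members was not tested.

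To describe the members per amount of epithelial RNA, the mean log2 CPM of the 14 epithelial markers was subtracted from each member's log2 CPM in the same library. These markers did not move alike: their log2 fold changes of LPMC to colon ran from -3.07 for Krt20 to 1.34 for Agr2. The scale therefore depends on the markers chosen. On this scale 9 of the 34 lay higher in every LPMC library than in every colon library, where 18.9% of all genes tested did, and 5 lay lower, where 5.68% did. The 9 were Cldn2, Cldn15, Cldn4, Cldn23, Marveld2, Pard3, Pard6b, Prkcz and Llgl2, and the 5 were Cldn8, Cldn7, Cdh17, Ctnnd1 and Pkp3. The differences of the means, LPMC minus colon, were 3.00 for Cldn15, 2.52 for Cldn23, 2.28 for Cldn2 and for Cldn4, 2.22 for Pard6b, 1.43 for Pard3 and 1.36 for Prkcz. They were -1.55 for Cldn8, -0.84 for Pkp3, -0.63 for Ctnnd1, -0.58 for Cdh17 and -0.56 for Cldn7. The other 20 overlapped, among them Cdh1 (0.14), Tjp1 (-0.05), Tjp3 (-0.02), Ctnna1 (0.05) and Epcam (-0.23).

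When edgeR's test was repeated with libraries scaled to the same epithelial markers, a choice made after the data were seen, the median log2 fold change of all genes moved to 0.42 and 20 members were called. Of these 14 were higher, where 33.8% of all genes were, and 6 lower, where 10.9% were. The calls of Tjp1, Tjp3, Marveld3, Dsg2, Ctnna1, Ctnnb1 and Epcam in the lower direction were lost, and the sign turned for Ctnna1 (0.03) and Ctnnb1 (0.15). New calls in the higher direction were Cldn3 (0.45, adjusted p = 0.0148), Jup (0.31), Cgn (0.41), Llgl2 (0.48) and Cxadr (0.78), of which all but Cxadr lay near the median of all genes on that scale. Cldn8, Cldn7, F11r, Cdh17, Ctnnd1 and Pkp3 were called lower under either scaling. Called higher under either were Cldn2, Cldn15, Cldn4, Cldn23, Ocln, Marveld2, Pard3, Pard6b and Prkcz.

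**Figure D4:**
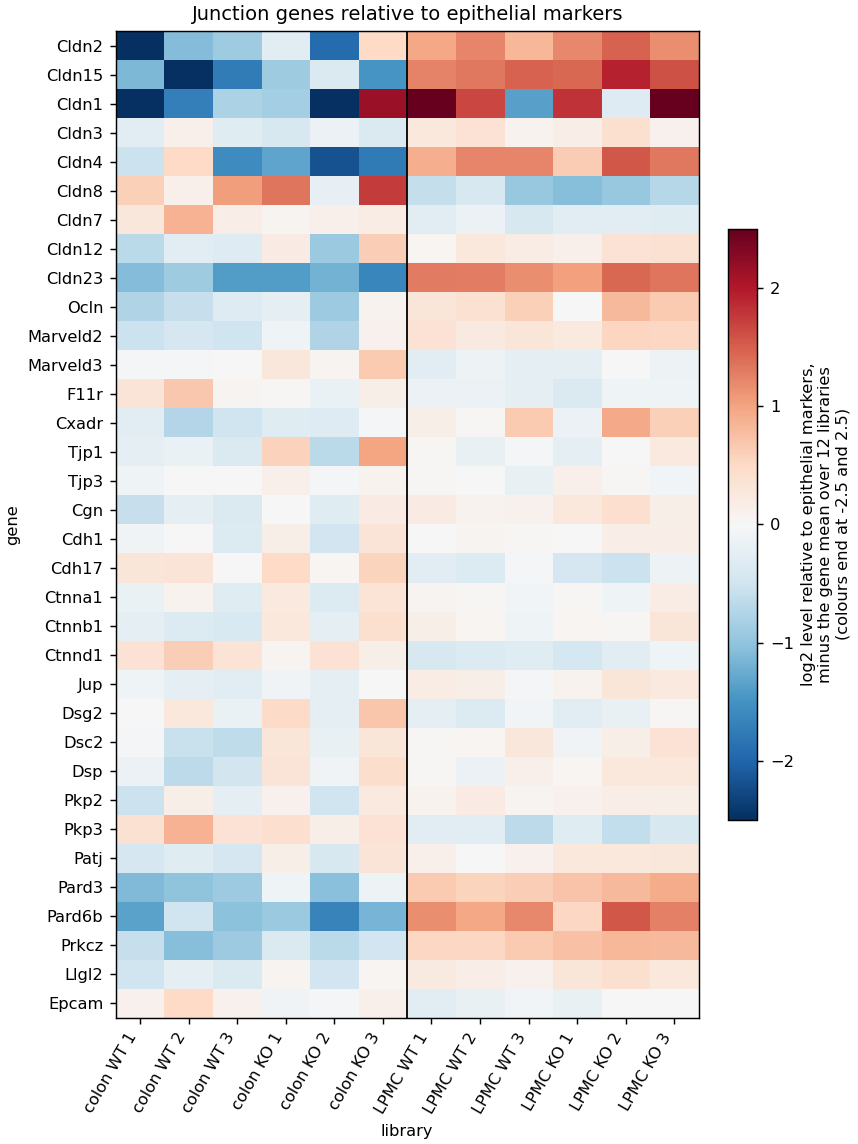
Heat map of the level of the 34 members (rows, by role) relative to the mean of 14 epithelial markers in the same library, as the log2 difference from each gene's mean over the 12 libraries (columns; colon left and LPMC right of the line). Cldn2, Cldn15, Cldn4, Cldn23, Pard3, Pard6b and Prkcz are red in LPMC and Cldn8 blue, while Cldn1 varies within both tissues. Cldn7, Cdh17, Ctnnd1 and Pkp3 lie below their means in LPMC, by little on this colour range, so that some cells are near white.

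The members also differed in how steady they were between libraries of the same group. In colon the pooled within-group SD of log2 CPM was largest for Cldn1 (1.76), Cldn15 (1.22), Cldn2 (0.99) and Cldn4 (0.67) and smallest for Dsg2 (0.07), Marveld2 (0.11), Ctnna1 (0.11) and Cdh1 (0.12). Families were not uniform in this: the catenin gene Ctnnd1 had 0.46, Cldn3 0.46 and Cldn12 0.25. In LPMC the SD was 0.35 for Cldn15, 0.31 for Cldn2 and 0.44 for Cldn4, and 22 of 34 members had the larger SD in colon, as did 66.7% of all genes tested. The median SD of the members was 0.28 in colon and 0.22 in LPMC, against 0.45 and 0.32 over all genes tested.

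The comparison of KO with WT asked whether junction genes in the inflamed gut differ when Gpr15l is missing. In colon none of the 34 members passed edgeR's test, in which 1 gene of 19303 did (0.00518%), and the smallest adjusted p among members was 0.632. At an unadjusted p under 0.05 there were 2 members, Cldn4 lower and Pard3 higher in KO, and 1504 genes in all. DESeq2 also called none of the members. The groups of 3 did not overlap for 7 members (6 higher and 1 lower in KO), a share of 20.6%, where 14.3% of all genes tested did not overlap. The median log2 fold change of the 34 was 0.15, against 0.01 over all genes tested.

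Cldn4 had the largest negative value in colon. Its KO libraries, at 42.7 to 65.4 CPM as given above, all lay below its WT libraries, at 70.7 to 239 CPM, and the log2 fold change was -1.46 (SE 0.43, adjusted p = 0.632 by edgeR). The other sealing claudins did not all share its sign. Cldn3 had -0.15 (SE 0.34, adjusted p = 0.908) and Cldn8 0.24 (SE 0.35, adjusted p = 0.857). The scarce Cldn1 had 1.87 (SE 1.13, adjusted p = 0.673), the largest positive value of the 34, with KO library 3 at 3.72 CPM. The pore-forming claudins had positive values that overlapped between the groups, with 0.88 for Cldn2 (SE 0.57, adjusted p = 0.684) and 1.01 for Cldn15 (SE 0.73, adjusted p = 0.706). Their highest colon libraries were different: KO 3 for Cldn2 and KO 2 for Cldn15. Leaving out single libraries moved Cldn2 from 0.47 (without WT 1) to 1.37 (without WT 3), Cldn15 from 0.20 (without KO 2) to 1.60 (without WT 1) and Cldn4 from -1.78 (without WT 3) to -0.96 (without WT 2). With both classes combined, the pore-forming to sealing ratio averaged -3.30 ± 0.58 (SD, n = 3) in colon WT and -2.03 ± 0.56 (SD, n = 3) in colon KO. The groups were parted by the narrow gap between -2.64 in WT library 3 and -2.62 in KO library 2. With Cldn2 alone as the numerator they overlapped, at -5.35 to -3.01 in WT and -3.98 to -1.70 in KO.

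The other members whose colon groups did not overlap were all higher in KO. The scaffold gene Pard3, with the levels given above, was higher by 0.47 on the log2 scale (SE 0.17, adjusted p = 0.632). Dsp, the gene of desmoplakin, stood at 768, 428 and 618 CPM in WT and 811, 1058 and 792 CPM in KO (0.52, SE 0.27, adjusted p = 0.641). Ctnnb1 stood at 740, 543 and 663 CPM in WT and 804, 987 and 783 CPM in KO (0.37, SE 0.21, adjusted p = 0.663). For Dsp and Ctnnb1 the lowest KO library lay close above the highest WT library, and for Pard3 the gap, from 34.8 to 41.0 CPM, was wider. Patj (0.31, SE 0.16, adjusted p = 0.646), Dsg2 (0.18, SE 0.16, adjusted p = 0.766) and Marveld2 (0.14, SE 0.16, adjusted p = 0.81) had smaller values. Tjp1 was at 122 to 147 CPM in WT and 143 to 234 CPM in KO, so that its groups overlapped by KO library 2 (0.47, SE 0.21, adjusted p = 0.632).

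Other cells varied in the same comparison. All 12 leukocyte markers had negative log2 fold changes in colon KO (summed level 236 to 1415 CPM in WT and 72.0 to 420 CPM in KO) and all 10 smooth muscle and fibroblast markers positive ones (588 to 1421 CPM in WT and 1395 to 2137 CPM in KO). None of either list was called. Summed epithelial markers ran from 25050 to 28100 CPM in WT and stood at 20060, 37620 and 19440 CPM in KO libraries 1 to 3, so KO library 2 was the highest and the other KO libraries the lowest. Of the 14 epithelial markers, 10 endothelial markers and 6 tested squamous markers none was called. Epcam followed the epithelial markers, with 1354, 2418 and 1401 CPM in KO against 2020 to 2119 CPM in WT (log2 fold change -0.28, SE 0.28, adjusted p = 0.782). The part of these differences in the values of the members was not tested.

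**Figure D5:**
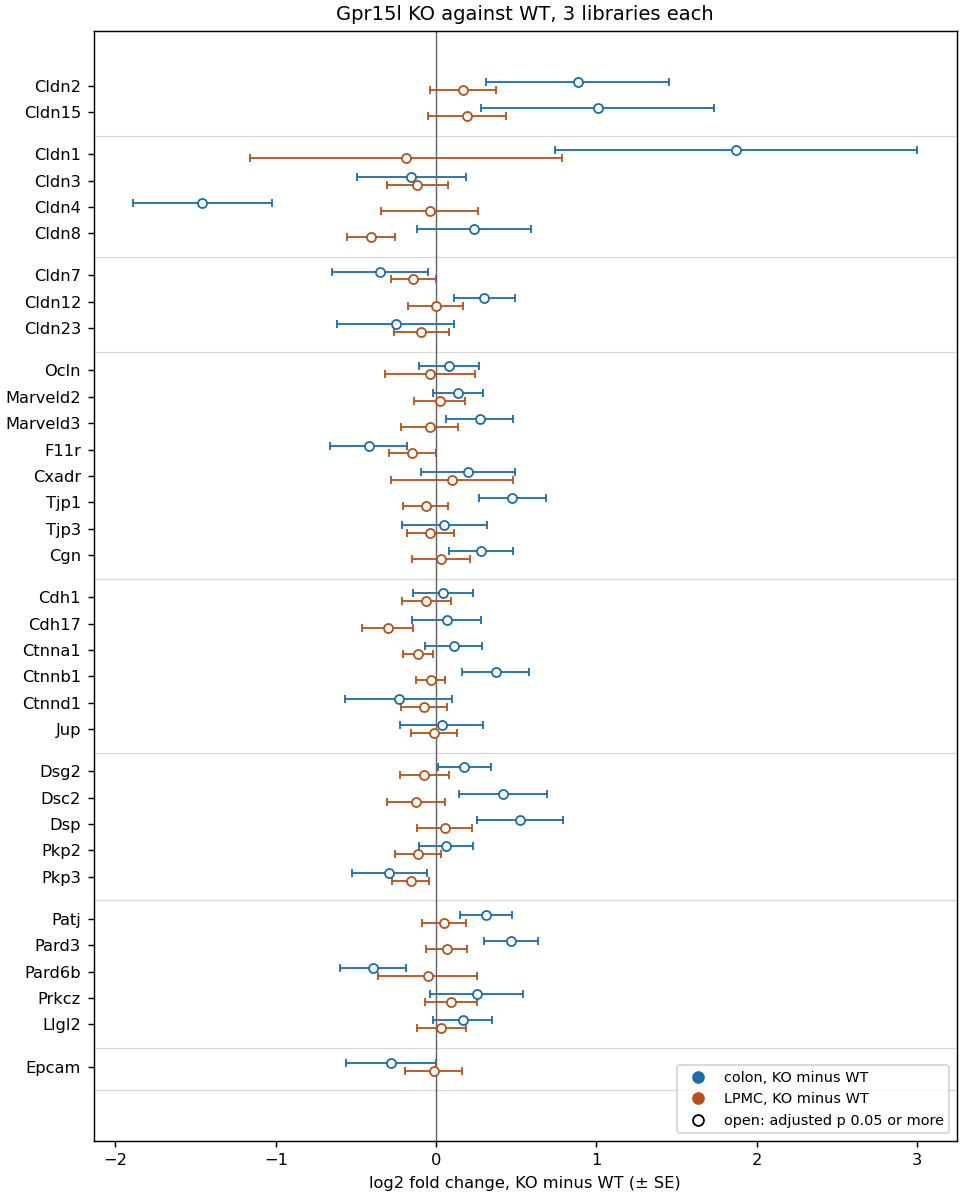
Log2 fold change of KO against WT for the 34 members with its SE, in colon (blue) and in LPMC (orange), each from edgeR's fit to 6 libraries. All points are open, since no member passed an adjusted p of 0.05; colon values run from -1.46 to 1.87 and LPMC values from -0.40 to 0.19.

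In LPMC none of the 34 members passed the test of KO against WT, where 2 of 19426 genes did (0.0103%), and the smallest adjusted p among members was 0.998. At an unadjusted p under 0.05 there was 1 member, Cldn8, and 513 genes in all, and DESeq2 called no member. The log2 fold changes ran from -0.40 to 0.19, with a median of -0.04 against -0.004 over all genes tested. The groups did not overlap for 2 members (5.88%), both lower in KO, where 7.44% of all genes tested did not overlap.

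Those 2 were Cldn8 and Cdh17. Cldn8 stood at 28.7, 36.8 and 27.6 CPM in LPMC WT and 21.9, 26.4 and 22.7 CPM in LPMC KO (log2 fold change -0.40, SE 0.15, adjusted p = 0.998 by edgeR). Cdh17 stood at 480, 518 and 700 CPM in WT and 465, 473 and 455 CPM in KO (-0.30, SE 0.16, adjusted p = 0.998). The gap of the Cdh17 groups was small against the spread of the WT libraries. The pore-forming to sealing ratio averaged -1.10 ± 0.03 (SD, n = 3) in LPMC WT and -0.82 ± 0.07 (SD, n = 3) in LPMC KO, and the groups did not overlap, whether Cldn7 was added to the sealing claudins, Cldn2 was taken alone or lengths were divided out. In neither tissue did a claudin of this ratio pass by itself. All 12 leukocyte markers had positive log2 fold changes in LPMC KO (summed level 730 to 1289 CPM in WT and 532 to 1862 CPM in KO) and all 10 endothelial markers negative ones (269 to 551 CPM and 210 to 461 CPM). Of the 14 epithelial markers 10 were negative (14470 to 16890 CPM in WT and 12120 to 17190 CPM in KO), with Krt20 (log2 fold change -0.93, SE 0.28, adjusted p = 0.998) and Krt19 (-0.26, SE 0.12, adjusted p = 0.998) lower in KO without overlap, as Cldn8 and Cdh17 were. Of the 10 smooth muscle and fibroblast markers 9 were negative (902 to 6030 CPM in WT and 1128 to 4020 CPM in KO). None of these markers was called, and their part in the values of the members was not tested.

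The difference between the KO effects in the 2 tissues was tested as an interaction over all 12 libraries. No member passed, and no gene of 20989 did (0.0%), against 985 genes and 1 member at an unadjusted p under 0.05 and 3 genes, none of them members, by DESeq2. The member was Cldn4, whose KO effect in LPMC exceeded that in colon by 1.41 on the log2 scale (SE 0.57, adjusted p = 0.902). For Tjp1 the difference was -0.55 (SE 0.26, adjusted p = 0.902) and for Pard3 -0.41 (SE 0.21, adjusted p = 0.902). Both had positive values in colon and values near 0 in LPMC, but the data did not show that the tissues differ in this.

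Of 50 other junction and polarity genes 49 were in the table. Among the 49 were Esam and Cldn5, also listed as endothelial markers, and Dsg3 and Dsc3, also listed as squamous markers. Of these, edgeR called Esam higher in LPMC (1.72, adjusted p = 0.000732) and Dsg3 lower (-2.71, adjusted p = 0.0242). In LPMC against colon 46 of the 49 were tested, and 10 were called higher and 12 lower, which is 47.8% where 50.3% of all genes were called. By smallest p these were Igsf5, the gene of JAM4 (log2 fold change -1.39, SE 0.13, adjusted p = 1.71e-05), Nectin1, a cell adhesion gene of adherens junctions (1.60, SE 0.16, adjusted p = 2.35e-05), Actn4, the gene of an actin cross-linker (-0.81, SE 0.12, adjusted p = 0.000242), and Evpl, the gene of envoplakin (-1.53, SE 0.22, adjusted p = 0.000264). In colon KO against WT none of 46 passed, 7 had an unadjusted p under 0.05, as did 1504 of all 19303 genes, and 10 had groups without overlap, all of them higher in KO (21.7%, against 14.3% of all genes in either direction). The 4 of smallest p were Pard3b, a relative of Pard3 (0.91, SE 0.24), Magi1 (0.48, SE 0.14) and Magi3 (0.66, SE 0.22), scaffold genes of the tight junction, and Vcl, the gene of vinculin (1.00, SE 0.29), each with an adjusted p of 0.632. Pard3b stood at 18.3, 10.5 and 15.1 CPM in colon WT and 26.9, 26.7 and 31.2 CPM in colon KO, and Magi1 at 42.0 to 43.1 CPM against 58.2 to 64.3 CPM. Other polarity and scaffold genes of the list had negative values or values near 0, such as Crb3 (-0.49), Magi2 (-0.28), Pard6a (-0.24), Cgnl1 (-0.11) and Scrib (0.03), named after their values were seen.

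In LPMC KO against WT none of 45 other junction genes passed. The values of smallest p were -0.25 for Actn4 (SE 0.09), -1.46 for the scarce Cldn10 (SE 0.54), 0.40 for Nectin1 (SE 0.18) and -0.24 for Igsf5 (SE 0.12), each with an adjusted p of 0.998. In the interaction none of 46 passed, and the values of smallest p were -1.04 for Vcl (SE 0.34), -3.70 for Cdh3, a cadherin at under 8 CPM in every library (SE 1.23), -0.78 for Pard3b (SE 0.27) and -0.59 for Actn4 (SE 0.23), each with an adjusted p of 0.902.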

How the data were processed

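Messenger RNA libraries (TruSeq Stranded, HiSeq 4000, per the labels' protocols) of 12 mouse samples were analysed from the whole-number counts per Ensembl gene that the authors deposited. STAR and the builds mm10 and GRCm38 are named in the submitters' processing notes, while for the counting tool, strand setting and annotation no name is given in the sources used here. Symbols were taken from GENCODE M21, which matched 54042 of 54109 identifiers. Exons of 8 members (Cldn3, Cxadr, Tjp3, Ctnna1, Ctnnb1, Ctnnd1, Dsg2 and Dsp) overlap those of another gene, and their reads may include that gene's.

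The members, lists and comparisons were chosen with earlier results of these data known. Counts were tested with edgeR 4.0.16 in R 4.3.3 (TMM factors, filterByExpr with a minimum count of 10, robust quasi-likelihood F-test), with Benjamini-Hochberg adjustment over all genes tested and a threshold of 0.05. KO was compared with WT on the 6 libraries of a tissue, and the tissue comparison and the interaction were fitted on all 12 with a mean per group. The SE of a log2 fold change is |log2 fold change| / √F. The levels given are CPM with TMM factors over 12 libraries, and log2 CPM used a prior count of 2. Values per kilobase used the exonic length in M21. Levels are given per library or as a range for the claudins, Ocln, Tjp1, Cdh1 and Epcam and for some other members. Up to 4 other junction genes per comparison are named by smallest p, some of them with levels. No 2 replicates agreed within sampling noise (chi-square per gene of 76.1 to 607). DESeq2 1.42.0, limma 3.58.1 (voom), DESeq2's size factors, no filter, a replicate block, WT libraries alone and omission of single libraries were the alternatives, and omission of pairs of libraries and scaling to epithelial markers were added after the data were seen. The edgeR step was tested on simulated counts with known changes.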

Additional observations from a re-analysis of the deposited data

How the results depend on the processing

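No member passed the test of KO against WT, or of the interaction, under any alternative run. Over all genes, the count called was 1 in colon and 2 in LPMC. DESeq2 gave 33 in colon, 34 in LPMC and 3 in the interaction. The fit to all 12 libraries gave 2 in colon, the LPMC fit without a filter 4, and LPMC without WT 3 and KO 2 together 5. Leaving out single libraries gave 0 to 1 in colon (0 without colon KO replicate 2) and 1 to 2 in LPMC (1 without either library numbered 1). The causes were not tested. LPMC against colon had 6393 calls in the WT libraries alone, with fewer samples, against 10549, and 16 members called against 22. Of the 22 calls among members, Cldn4, Ocln, Marveld2, Tjp1, Ctnna1 and Ctnnb1 were lost there. DESeq2 called 24 members and limma-voom 23, and leaving out single libraries gave 19 to 21. Cdh1 passed with DESeq2's size factors, DESeq2, limma-voom and without LPMC KO replicate 2, and Cldn1 with DESeq2 and without colon KO replicate 3. The Cldn3 log2 difference of -0.01 turned to 0.024 with limma-voom, 0.0059 with the replicate block, 0.24 without colon WT 1 and KO 2 together and 0.45 with scaling to epithelial markers, and ranged from -0.12 to 0.21 over single omissions. With that scaling Cdh1 turned to 0.12, Ctnna1 to 0.031 and Ctnnb1 to 0.15. With Epcam in place of the 14 epithelial markers, 14 members lay higher and 3 lower in LPMC without overlap, in place of 9 and 5. With the replicate number as a block, 0 genes were called in colon and 0 in LPMC, and 20 members between tissues, without Marveld2 and Ctnnb1. The numbers were not taken to pair the samples, since the labels do not say so and not every same-numbered pair correlated by over 0.1. Same-numbered libraries had correlated deviations of -0.134 to 0.041 between colon WT and KO, -0.231 to 0.239 between LPMC WT and KO and 0.064 to 0.303 between tissues, where all 6 were positive and 5 of 6 colon libraries correlated best with their own number. A shared animal across tissues, or another link, is hinted at by this and was not settled. The replicate block joined WT and KO libraries of the same number, so it did not test that link. With 3 libraries per group, small differences of variable genes such as Cldn1, Cldn2 and Cldn15 cannot be resolved, and larger ones may be missed. In colon KO against WT their log2 fold changes were 1.87, 0.88 and 1.01 (SE 1.13, 0.57 and 0.73), and none passed.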

Other observations

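Patterns among colon libraries were noticed after the values had been seen and were not tested. The levels of Cldn15 and of Cdx2, an intestinal transcription factor gene, fell in the same order over the 6 colon libraries. Cldn15 stood at 117 CPM in KO 2, 51.7 in WT 1, 46.7 in KO 1, 33.6 in WT 3, 27.5 in KO 3 and 8.37 in WT 2, and Cdx2 at 351, 232, 93.9, 91.4, 32.0 and 25.2 CPM in the same libraries. Lsr, the gene of angulin-1, a receptor at tricellular contacts, had the reverse order, at 12.3, 28.5, 74.9, 75.9, 104 and 106 CPM. The order does not follow genotype, since KO 2 and WT 2 stand at its ends. In LPMC the ranges were narrow, with 167 to 232 CPM for Cdx2 and 44.8 to 86.4 CPM for Lsr. These libraries share their scaling, and an order over 6 libraries is a description only.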
